A study of Mus musculus with 8 samples.

Results

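The genes of cholesterol and fatty acid synthesis were followed in the colon epithelium of mice lacking the function of 1 of 3 glycosyltransferases. The set was a list of 29 gene symbols drawn from pathway knowledge, but chosen with earlier results of these data known. It held 18 enzymes of the sterol branch, 7 enzymes of the fatty acid branch, and 4 genes of their regulation and of sterol transport. All 29 were among the 24346 symbols of the deposited tables, and all 29 passed the filter of a mean of at least 1 FPKM (fragments mapped to a gene per kilobase of its transcript, relative to all mapped fragments), as did 11537 genes in all. Epithelial cells were taken from the colon of untreated C57BL/6J mice, and 8 libraries were made, 1 from a male and 1 from a female of each of 4 genotypes. These were wild-type, St6galnac6-/- (a sialyltransferase), B3galt5D116A (a substitution in a galactosyltransferase) and B3gnt7-/- (an N-acetylglucosaminyltransferase). The labels give no age, do not describe how the alleles were made, and leave it unsaid if each library stands for 1 animal or several pooled. The p-values below therefore speak only of the variation among these 8 libraries, in which animal and technical variation cannot be told apart.

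Cells make cholesterol from acetyl-CoA through mevalonate, isoprenoid units, squalene and lanosterol, and they make fatty acids from the same acetyl-CoA through malonyl-CoA. Both routes are driven by the transcription factors SREBP-1 and SREBP-2 (genes Srebf1 and Srebf2), which stay in the endoplasmic reticulum when sterols are plentiful, held there by the Insig proteins, and move to the nucleus when sterols are scarce. In the nucleus they bind sterol regulatory elements, usually beside sites for the factor NF-Y. For this reason the sterol enzymes are known to vary together, and the fatty acid enzymes, which answer more to SREBP-1, partly apart from them. The intestinal epithelium both makes sterols and takes them up.

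The promoters of 23 of the 29 genes had an entry in the RefSeq table for GRCm38.p6, with 28 windows of 300 bases, from 250 bases before to 50 after the annotated start. Fdps, Fdft1, Sqle, Stard4, Scd1 and Scd2 were not matched. The 250 bases before the start are printed for 4 genes, Hmgcs1 as an early step of the sterol route, Hsd17b7 as the member with the smallest p between genotypes, Insig1 as a regulator and Fasn for the fatty acid branch, the last 3 chosen with their values known. They lie at chr13:119690101-119690350 (plus strand), chr1:169969206-169969455 (minus), chr5:28071162-28071411 (plus) and chr11:120824548-120824797 (minus). Each is written 5′ to 3′ on the gene's own strand, and capitals mark the 3 motifs searched on both strands: TCACNCCAC (a form of the sterol regulatory element), CCAAT (the core bound by NF-Y, which reads ATTGG on the other strand) and CACGTG (an E-box).
Hmgcs1: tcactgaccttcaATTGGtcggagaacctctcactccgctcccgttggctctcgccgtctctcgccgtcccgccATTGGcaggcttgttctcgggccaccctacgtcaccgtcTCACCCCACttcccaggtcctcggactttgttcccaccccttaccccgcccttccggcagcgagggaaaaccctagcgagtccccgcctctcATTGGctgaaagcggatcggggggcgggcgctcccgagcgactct
Hsd17b7: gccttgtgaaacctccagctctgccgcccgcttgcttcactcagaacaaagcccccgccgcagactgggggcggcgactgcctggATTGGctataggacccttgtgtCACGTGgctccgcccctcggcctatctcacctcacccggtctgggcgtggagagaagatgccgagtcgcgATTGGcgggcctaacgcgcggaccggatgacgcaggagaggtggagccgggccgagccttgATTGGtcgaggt
Insig1: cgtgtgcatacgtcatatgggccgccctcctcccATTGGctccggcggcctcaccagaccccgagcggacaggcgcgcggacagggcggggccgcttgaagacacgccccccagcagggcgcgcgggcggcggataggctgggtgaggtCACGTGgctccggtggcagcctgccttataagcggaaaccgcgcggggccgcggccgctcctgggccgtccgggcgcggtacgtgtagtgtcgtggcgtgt
Fasn: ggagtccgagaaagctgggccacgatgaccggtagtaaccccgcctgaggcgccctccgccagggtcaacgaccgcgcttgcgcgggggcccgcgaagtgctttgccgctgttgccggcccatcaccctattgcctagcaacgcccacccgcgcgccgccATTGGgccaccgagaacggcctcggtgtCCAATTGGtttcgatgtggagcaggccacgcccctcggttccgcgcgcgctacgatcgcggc

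The NF-Y form CCAAT was found in a window of 20 of the 23 matched genes (87.0%), against 41.1% of all 27025 genes in the table and 43.3% of the tested genes. It was present in 14 of 15 sterol genes, 3 of 3 regulators and 3 of 5 fatty acid genes. Hmgcs1 and Hsd17b7 each held 3 copies in the bases printed, and Insig1 held 1. Fasn held 3, of which a pair shared bases, since CCAATTGG reads as the motif on both strands. The sterol regulatory element form was found in 1 of the 28 windows, that of Hmgcs1, against 1.24% of all 32851 windows. The E-box was found in 4 of 23 genes (17.4%, against 8.09% of all genes and 12.1% of the tested genes), Hsd17b7, Sc5d, Dhcr7 and Insig1. A match is a description of letters and not of binding, and most windows had no match to the single sterol element form searched.

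**Figure D1:**
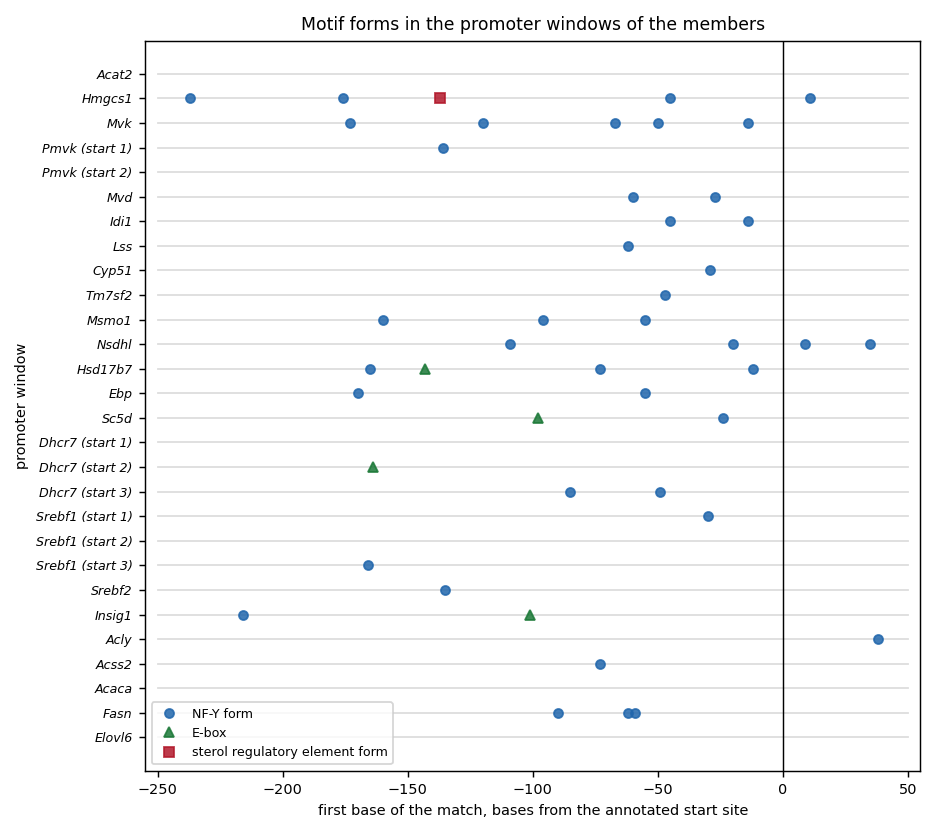
Position of each motif match (first base, in bases from the annotated start site) in the 28 promoter windows of 23 genes, 1 line per window. Circles are the NF-Y form CCAAT, the square is the sterol regulatory element form in Hmgcs1, and triangles are the E-box CACGTG; the NF-Y form is in 20 of the 23 genes and the sterol element form in 1.

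The libraries differed in ways that bear on the values. The relative depth, taken from the ratios of values below 0.15 FPKM, ran from 1 in the wild-type male library to 1.46 in the B3galt5D116A male library; read counts were not used here, so no counting interval is given. With each gene centred on its own mean, the median of all tested genes lay between -0.018 and 0.0077 (log2) in every library. St6galnac6 was at 218 and 232 FPKM in its own mutant against 343 or more elsewhere, and B3gnt7 at 68.8 and 142 FPKM in its own mutant against 154 or more elsewhere. B3galt5 was at 133 and 93.1 FPKM in B3galt5D116A and between 105 and 162 FPKM elsewhere, and a substitution need not move its transcript level. By limma 0 of these 3 targeted genes were called in any mutant against wild-type, against 0.052% to 0.0867% of all tested genes. St6galnac6 in its own mutant was at -0.66 (log2, limma adjusted p = 0.34). A count of 0 called below is therefore not evidence of no change. Epithelial markers (11 of 11 detected) summed to 12800 to 17000 FPKM. Of 9 adipocyte markers, 5 (Adipoq, Plin1, Lep, Cfd and Retn) were listed at 0 in all 8 libraries, and a listed 0 can be an estimate that failed. The list summed to 183 and 234 FPKM in wild-type, 148 and 106 in St6galnac6-/-, 183 and 140.0 in B3galt5D116A and 149 and 204 in B3gnt7-/-, most of it Pck1 at 98.5 to 223 FPKM, beside Lipe at 3.98 to 5.92, Cidec at 2.55 to 7.45 and Fabp4 at 0 to 0.373 FPKM. Stromal markers summed to 2.84 to 4.50 FPKM in 7 libraries and to 25.4 FPKM in the B3gnt7-/- female, where the fibroblast gene Dcn was at 18.9 FPKM. The 10 proliferation markers summed to 239 and 238 FPKM in the wild-type male and female, 270 and 432 in St6galnac6-/-, 345 and 403 in B3galt5D116A and 365 and 231 in B3gnt7-/-. The 8 absorptive colonocyte markers summed to 9900 and 9730 FPKM in wild-type, 8350 and 6630 in St6galnac6-/-, 10000 and 18500 in B3galt5D116A and 13900 and 7280 in B3gnt7-/-. Most of each sum was Car1, at 5241 to 16569 FPKM. In the B3galt5D116A female, Car1 (16569 FPKM), Aqp8 and Fabp2 were above both wild-type libraries. Car4, Slc26a3, Ceacam20 and Slc20a1 were below both there, and Alpi lay between them. The part of depth, stroma, absorptive cells or proliferation in the results below was not tested. In bulk libraries, fewer cells of a type and less RNA per cell cannot be told apart.

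All 29 genes were expressed in every library. Their mean levels over the 8 libraries, per length, ran from 9.08 FPKM for Hsd17b7 to 207 FPKM for Scd2, with a median of 42.1 FPKM. Hmgcs1 was the highest of the sterol branch at 152 FPKM. Between its highest and lowest library a gene differed 1.55-fold in the median, from 1.21-fold for Nsdhl to 1.95-fold for Msmo1. Together the 29 genes held 0.232% to 0.355% of a library's FPKM sum.

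In these genes the wild-type male library stood apart from the other 7. It held the highest value of 18 of the 29 genes (62.1%) and the lowest of none. Of all tested genes, 16.1% were highest there and 13.2% lowest. The B3galt5D116A female held more extremes of all tested genes (20.3% highest, 20.8% lowest), as did the B3gnt7-/- female (17.8% and 22.9%). By branch the wild-type male was highest for 13 of 18 sterol genes, 3 of 4 regulators and 2 of 7 fatty acid genes. The mean of the sterol branch, each gene centred on its own mean over the libraries on the log2(FPKM + 1) scale, was 0.30 in the wild-type male and -0.06 in the wild-type female. In St6galnac6-/- it was -0.25 in the male and 0.09 in the female, in B3galt5D116A -0.18 and -0.10, and in B3gnt7-/- 0.09 and 0.11. The sterol mean was thus low in both B3galt5D116A libraries, high in both B3gnt7-/- libraries, and on either side of 0 in the pairs from wild-type and St6galnac6-/-. The 4 regulators had means of 0.34 and 0.06 in wild-type, -0.08 and 0.10 in St6galnac6-/-, -0.14 and -0.28 in B3galt5D116A and -0.05 and 0.05 in B3gnt7-/-.

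**Figure D2:**
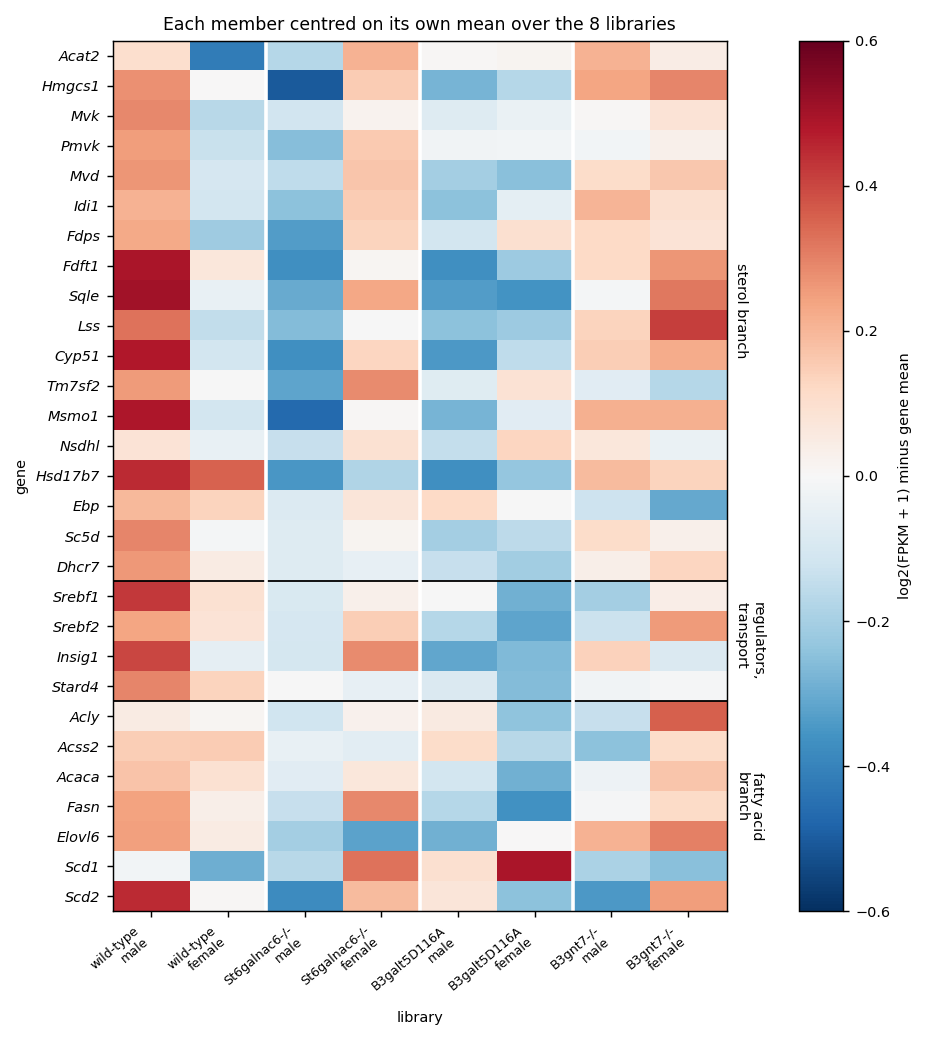
Heat map of log2(FPKM + 1) of the 29 genes (rows, by branch) in the 8 libraries (columns), each gene less its own mean; red is above and blue below that mean. The wild-type male column is the highest for 18 of 29 genes, and the St6galnac6-/- male and both B3galt5D116A columns are mostly blue.

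**Figure D3:**
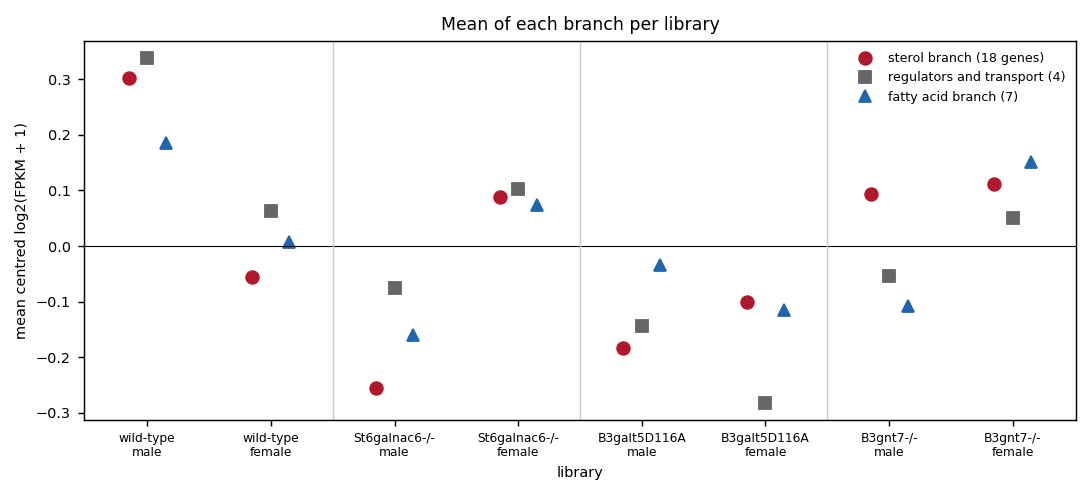
Mean centred log2(FPKM + 1) of the 18 sterol, 4 regulator and 7 fatty acid genes in each library, 1 point per branch and library, with no error bar because each point is 1 library. The sterol mean runs from -0.25 in the St6galnac6-/- male to 0.30 in the wild-type male library.

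The male and female libraries differed in opposite directions in wild-type and in St6galnac6-/-. In wild-type the male library was above the female for 18 of 18 sterol genes (median log2 difference 0.37). In St6galnac6-/- the female was above the male for 18 of 18 (median of male minus female -0.38). In B3galt5D116A 4 of 18 and in B3gnt7-/- 8 of 18 were higher in the male (medians -0.08 and -0.02). Over all tested genes 49.4% to 52.3% were higher in the male in each genotype. Over the 4 genotypes, limma called 0 of the 29 genes between males and females (0.052% of all tested genes), and 0 at an unadjusted p under 0.05 (1.66% of all). The sex term averages the genotypes, so the opposite differences of wild-type and St6galnac6-/- offset each other in it. They enter the residual spread used for every genotype comparison. With 1 library for each sex of a genotype, sex cannot be told apart from the library within a genotype.

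Single genes of the mevalonate steps showed this pattern. Values are given for the male and then the female library of each genotype. Hmgcs1, the synthase of HMG-CoA, was at 182 and 149.7 FPKM in the wild-type pair, 105 and 166 in St6galnac6-/-, 123 and 133 in B3galt5D116A and 177 and 184 in B3gnt7-/-. Idi1, the isomerase of the isoprenoid units, was at 88.2 and 70.6 FPKM in the wild-type pair, 64.2 and 84.9 in St6galnac6-/-, 64.1 and 73.1 in B3galt5D116A and 87.8 and 81.5 in B3gnt7-/-. Both genes were lowest or next to lowest in the St6galnac6-/- and B3galt5D116A males, and both B3gnt7-/- libraries were above both B3galt5D116A libraries. The remaining mevalonate enzymes, Acat2, Mvk, Pmvk, Mvd and Fdps, ranged from 11.7 FPKM (Acat2, wild-type female) to 148 FPKM (Fdps, wild-type male).

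Squalene synthesis and ring closure varied more. Fdft1, the squalene synthase, was at 64.1 and 47.7 FPKM in the wild-type pair, 34.9 and 45.8 in St6galnac6-/-, 34.9 and 38.9 in B3galt5D116A and 49.5 and 54.7 in B3gnt7-/-. Both mutant pairs St6galnac6-/- and B3galt5D116A lay below both wild-type libraries. Of the exon bases of Fdft1, 18.3% overlap Ctsb on the opposite strand, and whether the counting used strand is not given in the sources used here. Sqle, the squalene epoxidase and a rate-limiting step, was at 83.4 and 56.7 FPKM in the wild-type pair, 47.3 and 68.8 in St6galnac6-/-, 46.1 and 45.5 in B3galt5D116A and 58.01 and 73.1 in B3gnt7-/-. Only the B3galt5D116A pair lay wholly below wild-type. Lss, which closes the rings to lanosterol, ranged from 10.04 FPKM in the St6galnac6-/- male to 16.6 FPKM in the B3gnt7-/- female.

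Among the steps from lanosterol to cholesterol, Hsd17b7 had the smallest p between genotypes. Hsd17b7, a sterol keto-reductase (chr1:169949535-169969241, minus strand, GENCODE annotation of the mm10 build), was at 12.4 and 11.6 FPKM in the wild-type pair, 6.74 and 7.71 in St6galnac6-/-, 6.65 and 7.41 in B3galt5D116A and 10.2 and 9.83 in B3gnt7-/-. All 6 mutant libraries were below both wild-type libraries, and the 4 libraries of St6galnac6-/- and B3galt5D116A were below both of B3gnt7-/-. Ebp, a sterol isomerase, was at 65.6 and 62.9 FPKM in the wild-type pair, 54.0 and 60.2 in St6galnac6-/-, 62.4 and 57.1 in B3galt5D116A and 52.4 and 46.1 in B3gnt7-/-. Its lowest pair was B3gnt7-/-, unlike that of most sterol genes. Dhcr7, the reductase that makes cholesterol from its direct precursor, was at 59.2 and 51.0 FPKM in the wild-type pair, 46.7 and 47.5 in St6galnac6-/-, 44.7 and 42.4 in B3galt5D116A and 50.5 and 53.9 in B3gnt7-/-. The other enzymes of these steps, Cyp51, Tm7sf2, Msmo1, Nsdhl and Sc5d, ranged from 16.2 FPKM (Tm7sf2, St6galnac6-/- male) to 168 FPKM (Msmo1, wild-type male). Of the exon bases of Tm7sf2, 12.1% overlap Vps51 on the same strand.

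All 4 genes of regulation and transport had their lowest value in a B3galt5D116A library, 1 in the male and 3 in the female. Of all tested genes, 5.93% were lowest in that male and 20.8% in that female. Srebf1 was at 39.3 and 30.9 FPKM in the wild-type pair, 27.2 and 29.6 in St6galnac6-/-, 28.99 and 23.6 in B3galt5D116A and 25.1 and 29.9 in B3gnt7-/-. Srebf2 was at 72.4 and 65.0 FPKM in the wild-type pair, 57.1 and 68.2 in St6galnac6-/-, 54.4 and 49.2 in B3galt5D116A and 56.02 and 73.6 in B3gnt7-/-. Every mutant library was below both wild-type libraries for Srebf1, but for Srebf2 only the B3galt5D116A pair was. Insig1, which holds the SREBP complex in the endoplasmic reticulum and is itself a SREBP target, was at 111 and 80.6 FPKM in the wild-type pair, 77.5 and 102 in St6galnac6-/-, 67.2 and 69.4 in B3galt5D116A and 92.1 and 78.7 in B3gnt7-/-. Stard4, a carrier of cholesterol between membranes, was at 84.4 and 75.6 FPKM in the wild-type pair, 68.7 and 66.4 in St6galnac6-/-, 64.7 and 57.2 in B3galt5D116A and 67.8 and 68.4 in B3gnt7-/-. For Insig1 the lowest pair was B3galt5D116A, and for Stard4 all 6 mutant libraries were below both wild-type libraries.

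In the fatty acid branch the genes that supply acetyl-CoA differed in their overlap between genotypes. Acly, which makes it from citrate, was at 113 and 109.6 FPKM in the wild-type pair, 100.2 and 111 in St6galnac6-/-, 113 and 91.9 in B3galt5D116A and 98.8 and 140.0 in B3gnt7-/-. Acss2, which makes it from acetate, was at 71.1 and 71.3 FPKM in the wild-type pair, 62.0 and 61.4 in St6galnac6-/-, 69.2 and 57.1 in B3galt5D116A and 53.9 and 69.3 in B3gnt7-/-. Acly overlapped between wild-type and every mutant. Acss2 was lower in all 6 mutant libraries, at 53.9 to 69.3 FPKM against 71.1 and 71.3 FPKM in wild-type.

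Acaca, the carboxylase that commits acetyl-CoA to fatty acids, was at 13.7 and 12.9 FPKM in the wild-type pair, 11.4 and 12.7 in St6galnac6-/-, 11.1 and 9.68 in B3galt5D116A and 11.8 and 13.6 in B3gnt7-/-. Fasn, the fatty acid synthase, was at 49.5 and 42.8 FPKM in the wild-type pair, 37.7 and 51.1 in St6galnac6-/-, 36.9 and 32.2 in B3galt5D116A and 41.4 and 45.1 in B3gnt7-/-. Both were lowest in the B3galt5D116A female, where 20.8% of all tested genes were lowest. The B3galt5D116A pair lay below wild-type for each, as it did for 25.3% of all tested genes. Elovl6, which lengthens palmitate, was at 25.02 and 21.7 FPKM in the wild-type pair, 18.1 and 16.6 in St6galnac6-/-, 17.0 and 21.0 in B3galt5D116A and 24.4 and 26.1 in B3gnt7-/-. Its St6galnac6-/- and B3galt5D116A libraries lay below the other 4.

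The desaturases, which make monounsaturated fatty acids, did not vary alike. Scd1 was at 13.9 and 11.3 FPKM in the wild-type pair, 12.4 and 17.8 in St6galnac6-/-, 15.04 and 20.1 in B3galt5D116A and 12.1 and 11.6 in B3gnt7-/-. It was the 1 gene of the 29 (3.45%) for which both B3galt5D116A libraries were above wild-type, as 26.0% of all tested genes were. Scd2, the more abundant of the pair, was at 277 and 204 FPKM in the wild-type pair, 156 and 231 in St6galnac6-/-, 213 and 171 in B3galt5D116A and 159.5 and 242 in B3gnt7-/-, and each mutant pair had 1 library within the wild-type range and 1 below it.

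**Figure D4:**
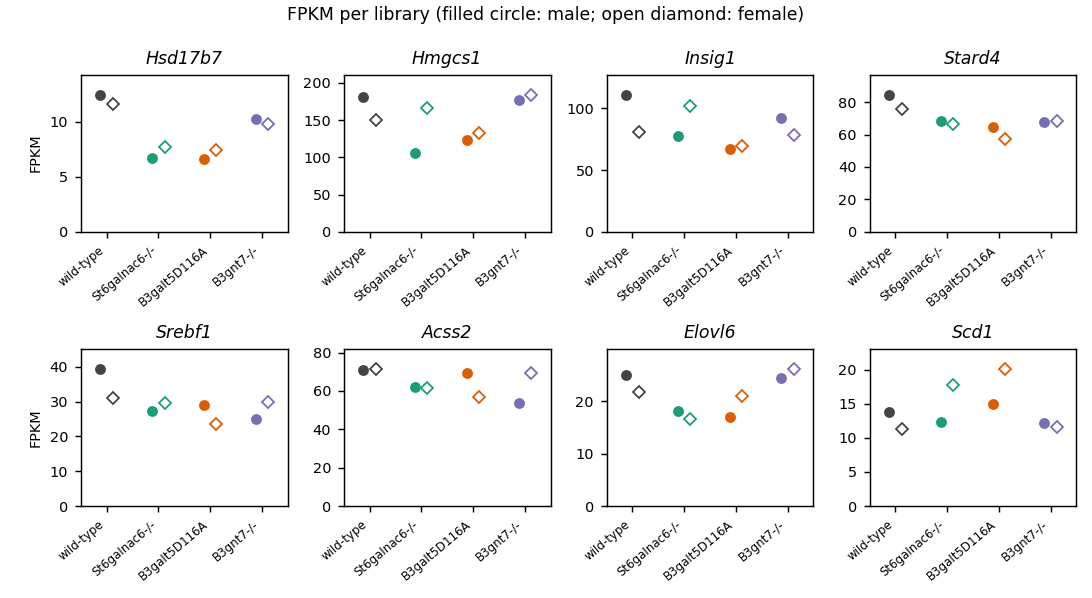
FPKM of 8 genes in each library, by genotype, with filled circles for males and open diamonds for females and axes that start at 0. Hsd17b7 and Stard4 are lower in all 6 mutant libraries than in both wild-type libraries, and Scd1 is highest in the B3galt5D116A female.

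Between St6galnac6-/- and wild-type, 27 of the 29 estimates were negative and none passed. The median log2 difference was -0.17 in the sterol branch, -0.19 in the regulators and -0.13 in the fatty acid branch, against 0.0030 for all tested genes. Hsd17b7 had the largest difference, -0.66 (SE 0.13, limma adjusted p = 0.183). Fdft1 was at -0.46 (SE 0.19, adjusted p = 0.537), Msmo1 at -0.42 (SE 0.24, adjusted p = 0.649) and Elovl6 at -0.41 (SE 0.14, adjusted p = 0.482). Scd1 was at 0.23 (SE 0.20, adjusted p = 0.784). By limma 0 of 29 genes were called, as 0.0867% of all tested genes were, and 3 were lower at an unadjusted p under 0.05 (10.3%, against 4.98% of all genes). Both mutant libraries lay below both wild-type libraries for 9 of 29 genes (31.0%), near the 23.6% of all tested genes. The median of the sterol branch rested on the males: it was -0.53 in males with 18 of 18 genes lower, and 0.17 in females with 4 of 18 lower. Without the wild-type male library it was 0.10, and without the St6galnac6-/- male library 0.02. In the same order the fatty acid median was 0.0033 and -0.03. The sterol median was -0.38 when the wild-type female was left out and -0.37 when the St6galnac6-/- female was. Beside these differences, 8 of 8 absorptive colonocyte markers were lower (median -0.40, 0 called). Of these, 4 were lower at an unadjusted p under 0.05, against 4.98% of all genes. All 10 proliferation markers were higher (median 0.75, 0 called), 5 of them at an unadjusted p under 0.05, against 4.07% of all genes.

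Between B3galt5D116A and wild-type, the same number of estimates, 27 of 29, were negative and the medians were larger. They were -0.32 in the sterol branch, -0.40 in the regulators and -0.29 in the fatty acid branch, against 0.0012 for all tested genes. Hsd17b7 was at -0.70 (SE 0.13, limma adjusted p = 0.233), Sqle at -0.58 (SE 0.24, adjusted p = 0.419) and Fdft1 at -0.57 (SE 0.19, adjusted p = 0.382). The regulators lay close together, with Insig1 at -0.46, Srebf2 at -0.40, Srebf1 at -0.40 and Stard4 at -0.39 (adjusted p from 0.354 to 0.426). In the fatty acid branch Fasn was at -0.41, Acaca at -0.33, Elovl6 at -0.29 and Scd1 at 0.45 (SE 0.20, adjusted p = 0.437). Limma called 0 of 29 genes, against 0.078% of all tested genes, while 9 were lower at an unadjusted p under 0.05 (31.0%, against 5.90% of all genes). Both mutant libraries lay below both wild-type libraries for 18 of 29 genes (62.1%), against 25.3% of all tested genes. These 18 were 10 of 18 sterol genes, 4 of 4 regulators and 4 of 7 fatty acid genes.

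The size of the B3galt5D116A difference rested in part on single libraries. Among males the sterol median was -0.46 with 18 of 18 lower, and among females -0.06 with 10 of 18 lower. Without the wild-type male library it was -0.00024, and the fatty acid median was -0.15. The regulators were lower in both sexes, with medians of -0.42 in males and -0.39 in females and 4 of 4 genes lower in each. The fatty acid medians were -0.28 in males and -0.25 in females, but without the B3galt5D116A female library the fatty acid median of the comparison was -0.04. Beside these differences, 10 of 10 proliferation markers were higher (median 0.84, 0 called, against 0.078% of all tested genes). Of these, 7 were higher at an unadjusted p under 0.05, against 5.84% of all genes. Of 8 absorptive colonocyte markers, 4 were lower.

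Between B3gnt7-/- and wild-type, 19 of 29 estimates were negative, with medians of -0.01 in the sterol branch, -0.19 in the regulators and -0.07 in the fatty acid branch, against -0.0095 for all tested genes. Ebp was at -0.38 (SE 0.12, limma adjusted p = 0.603), Srebf1 at -0.34 (SE 0.17, adjusted p = 0.741), Hsd17b7 at -0.24 (SE 0.13, adjusted p = 0.761) and Stard4 at -0.23 (SE 0.11, adjusted p = 0.739). Limma called 0 of 29 genes, against 0.052% of all tested genes, and only Ebp was lower at an unadjusted p under 0.05 (3.45%, against 4.29% of all genes). Non-overlapping lower values were seen for 6 of 29 genes (20.7%), near the 18.6% of all tested genes. In males the sterol median was -0.24 with 17 of 18 lower, and in females 0.23 with 3 of 18 lower. Without the wild-type male library it was 0.27, without the wild-type female -0.26 and without the B3gnt7-/- male 0.01. In this comparison too, 10 of 10 proliferation markers were higher (median 0.48, 0 called, 0 at an unadjusted p under 0.05, against 2.88% of all genes). Their sum was 365 FPKM in the B3gnt7-/- male and 231 FPKM in the female, against 239 and 238 FPKM in wild-type. Of 8 absorptive colonocyte markers, 4 were lower.

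**Figure D5:**
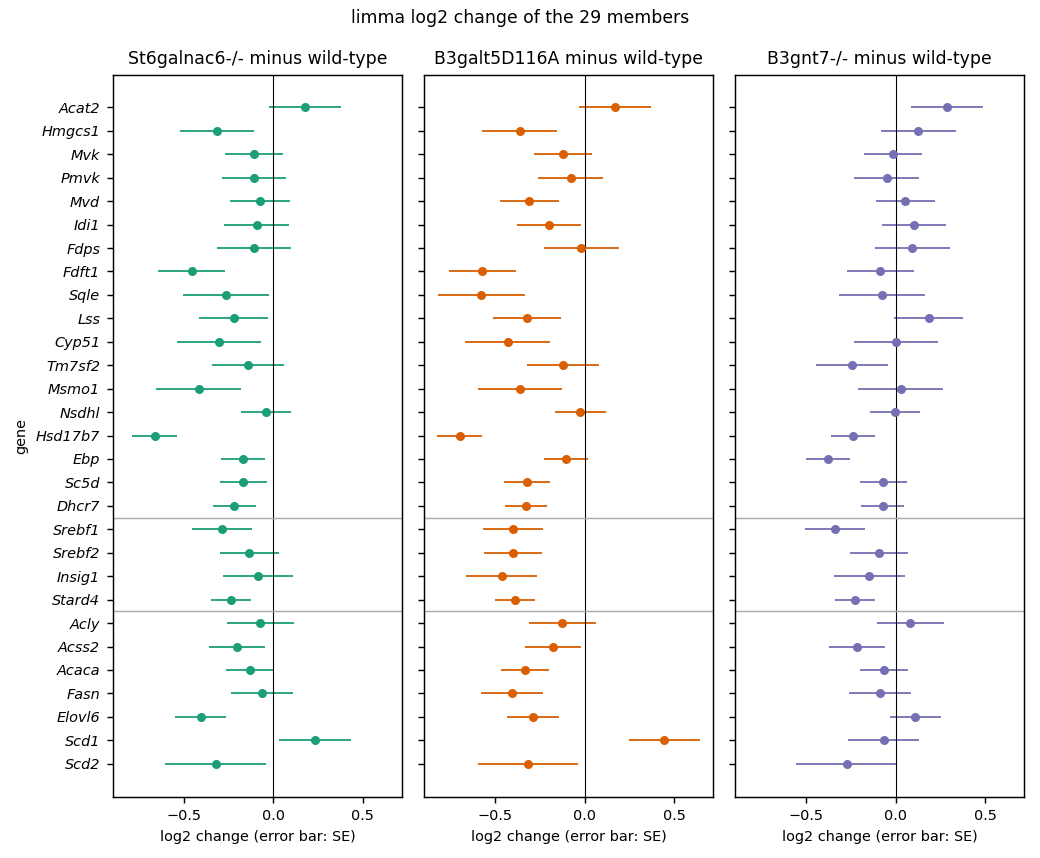
Log2 change of each of the 29 genes on the log2(FPKM + 1) scale for each mutant minus wild-type, with the standard error from limma as the bar (2 libraries a group). Most points lie left of 0 for St6galnac6-/- and B3galt5D116A (27 of 29 each) and 19 of 29 do for B3gnt7-/-; none passed the adjusted threshold of 0.05.

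The 3 comparisons share the wild-type libraries. Taken as the mean of the 3 mutants against wild-type, the medians were -0.18, -0.26 and -0.19 in the sterol branch, the regulators and the fatty acid branch, with 0 of 29 genes called against 0.182% of all tested genes and 4 lower at an unadjusted p under 0.05 (6.01% of all). All 6 mutant libraries lay below both wild-type libraries for 5 of 29 genes (17.2%, against 8.32% of all tested genes): Hsd17b7, Ebp, Srebf1, Stard4 and Acss2. Without the wild-type male library the sterol median was 0.12, without the wild-type female -0.35 and without the St6galnac6-/- male -0.07. Hsd17b7 also had the smallest p of the 29 over all differences among genotypes (limma moderated F, adjusted p = 0.340), where 0 of 29 genes were called against 0.0867% of all tested genes and 3 passed an unadjusted p under 0.05 (6.68% of all genes).

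The differences between mutants do not use the wild-type values, although the limma errors and p-values come from the fit of all 8 libraries. In B3galt5D116A both libraries lay below both B3gnt7-/- libraries for 19 of 29 genes (65.5%), against 15.8% of all tested genes. These were 13 of 18 sterol genes, 3 of 4 regulators and 3 of 7 fatty acid genes. Ebp and Scd1 were higher in B3galt5D116A without overlap, against 18.6% of all tested genes. The sterol median of this comparison was -0.28, at -0.31 between males with 17 of 18 lower and -0.23 between females with 14 of 18 lower. Lower in both sexes were 14 of 18 sterol genes, against 20.4% of all tested genes. The fatty acid genes differed between the sexes, with a median of 0.19 between males and -0.46 between females. Even so limma called 0 of 29, against 0.00867% of all tested genes, with 4 lower and 1 higher at an unadjusted p under 0.05 (1.99% and 2.21% of all genes).

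Between St6galnac6-/- and B3gnt7-/- the sterol median was -0.17, and 9 of 29 genes were lower without overlap (31.0%, against 13.5%), 8 of them sterol genes. It was -0.34 between males and -0.04 between females. Between St6galnac6-/- and B3galt5D116A the sterol median was 0.04, and 9 of 29 genes were higher in St6galnac6-/- without overlap (31.0%, against 22.2%). In these comparisons limma called 0 of 29 genes, against 0.0433% and 0.026% of all tested genes. At an unadjusted p under 0.05, 2 genes were lower than in B3gnt7-/- (2.16% of all) and 0 of 29 differed from B3galt5D116A (3.51% of all).

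The sterol and fatty acid branches were also set against each other within each library. The mean of the sterol genes less that of the fatty acid genes, centred over the libraries, was 0.12 and -0.06 in wild-type, -0.09 and 0.01 in St6galnac6-/-, -0.15 and 0.01 in B3galt5D116A and 0.20 and -0.04 in B3gnt7-/-. By genotype this gave 0.03 ± 0.13, -0.04 ± 0.08, -0.07 ± 0.12 and 0.08 ± 0.17 (SD, n = 2 each), and the values of the male and female library overlapped between every pair of genotypes. The difference was not tested. The B3gnt7-/- male had sterol genes above their mean (0.09) with fatty acid genes below theirs (-0.11), whereas in the B3gnt7-/- female both were above (0.11 and 0.15).

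Other genes of sterol and fatty acid handling were taken from 7 further lists, and limma called 0 of their tested members in any mutant against wild-type, at the same background shares. The 8 further sterol synthesis genes had medians of -0.05, -0.04 and -0.03 in St6galnac6-/-, B3galt5D116A and B3gnt7-/-. Of 12 genes of sterol uptake and transport, 10 were tested, with medians of 0.0038, -0.06 and 0.04. Gramd1a, which moves cholesterol from the plasma membrane to the endoplasmic reticulum, had 3.29 and 3.24 FPKM in the wild-type pair and between 4.30 and 5.41 FPKM in all 6 mutant libraries. Its limma adjusted p ran from 0.415 to 0.445. Of all tested genes, 7.23% were above both wild-type libraries in all 6 mutant libraries. The 11 genes of SREBP processing had medians between -0.01 and 0.02.

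The 16 tested of 19 further fatty acid synthesis genes had medians of -0.01, 0.03 and 0.02, and the 12 genes of fatty acid oxidation -0.14, -0.07 and 0.03. In the 12 glycerolipid genes the medians were -0.10, -0.01 and 0.02. Dgat2, which makes triglyceride, was at 18.2 and 17.1 FPKM in the wild-type pair, 25.5 and 18.1 in St6galnac6-/-, 22.8 and 23.7 in B3galt5D116A and 32.1 and 26.3 in B3gnt7-/-. Its B3gnt7-/- difference was 0.69 (SE 0.15, limma adjusted p = 0.367), and both libraries of B3galt5D116A and of B3gnt7-/- were above wild-type. Of all tested genes, 26% were above wild-type without overlap in B3galt5D116A and 16% in B3gnt7-/-.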

How the data were processed

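RNA from colon epithelial cells was measured in 8 libraries (4 genotypes, 1 male and 1 female each). The labels' protocols name the miRNeasy Micro Kit for RNA and TruSeq stranded mRNA for libraries. Tools listed in the submitters' processing notes are Cuffdiff 2.2.1, SAMtools 0.1.18, Bowtie2 2.2.8 and TopHat2 2.1.1, with the build mm10. Parameters, annotation, strand setting and scaling between libraries are not given in the sources used here. The authors deposited 1 table of FPKM values per library, per the file headers, with 24346 symbols. Depth is therefore known only as a ratio, read from 740 to 907 genes under 0.15 FPKM, of which 27.9% to 34.0% lay at the ratio within 0.01 (log2). A listed 0 can be an estimate that failed, but no member had one.

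Values were taken as log2(FPKM + 1), which understates changes of low genes. Genes averaging 1 FPKM or more (11537) were tested two-sided with limma 3.58.1 in R 4.3.3 (eBayes with trend), with genotype and sex as additive terms, 3 residual and 4.02 prior degrees of freedom, and Benjamini-Hochberg adjustment over all tested genes at 0.05. Sex is also the number that labels the pairs and stands as the block. The labels name no batch, and batch and genotype cannot be told apart.

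The members, the other lists and the tests were chosen with earlier results of these data known. The rule for named genes gave values in every library for Hmgcs1, Idi1, Sqle, Hsd17b7, Srebf1, Srebf2, Insig1, Stard4, Fasn, Scd1, Scd2 and Acly and for 3 further genes of each branch by smallest p. The others were given by range, and other lists by up to 3 genes of smallest p. Some genes of those lists are not reported here. Motifs were searched by exact match. The alternatives were pseudocounts of 0.1 and 5, no filter and a mean of at least 5 FPKM, other normalizations, no block, only the genotypes compared, other prior variances, and each library left out.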

Additional observations from a re-analysis of the deposited data

Results flagged for a closer look

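Some branch medians and single genes had opposite signs in the male and the female pair against wild-type. In each case 1 library stands on each side of each pair, so the difference between the sexes was not tested. For the sterol branch, St6galnac6-/- minus wild-type was -0.5344 in males and 0.1705 in females, B3gnt7-/- minus wild-type was -0.2436 and 0.2269, and the mean of the mutants was -0.3513 and 0.1162. For the fatty acid branch, St6galnac6-/- gave -0.238 in males and 0.01773 in females, and B3gnt7-/- gave -0.2019 and 0.07618. Among single genes in B3galt5D116A, Idi1 was at -0.453 in males and 0.05021 in females and Acly at 0.003029 and -0.2514. Scd1 in St6galnac6-/- was at -0.1539 in males and 0.6192 in females. All are log2(FPKM + 1) differences. The wild-type male library, the highest for 18 of the 29 genes, enters every male difference listed.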

How the results depend on the processing

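Under every alternative run, 0 of the 29 genes were called. Without the replicate block (no sex term) the count was 0 as well, and the medians against wild-type were unchanged at -0.17, -0.32 and -0.01 for the sterol branch in St6galnac6-/-, B3galt5D116A and B3gnt7-/-, since the design is balanced. With a pseudocount of 5 the fatty acid median in B3galt5D116A was -0.24 (log2) in place of -0.29, which that pseudocount shrinks by its construction. With quantile normalization the sterol median in B3gnt7-/- was 0.02 in place of -0.01. Leaving out 1 library at a time moved the medians most, and the cause was not tested. Against wild-type, the sterol median ran from -0.46 to -0.00024 in B3galt5D116A, from -0.38 to 0.10 in St6galnac6-/-, from -0.26 to 0.27 in B3gnt7-/- and from -0.35 to 0.12 over the mean of the mutants. The fatty acid median ran from -0.40 to -0.038 in B3galt5D116A, from -0.21 to 0.0033 in St6galnac6-/-, from -0.23 to 0.087 in B3gnt7-/- and from -0.24 to -0.024 over the mean of the mutants. In B3galt5D116A some single genes changed sign: Idi1 ran from -0.44 to 0.037 and Scd2 from -0.68 to 0.047 (positive without the wild-type male), and Acly from -0.37 to 0.12 and Acss2 from -0.37 to 0.016 (positive without the B3galt5D116A female). Scd1 in St6galnac6-/- ran from -0.044 without the wild-type female to 0.51, and was -0.0059 without the St6galnac6-/- female. A fit of only the genotypes compared was not run for the mean of the mutants, which uses all libraries. With FPKM only, no counting error could be set beside a value.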

Other observations

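Abcg5 and Abcg8, the paired transporters that pump sterols out of the intestinal epithelium, divided the libraries in another way than the synthesis genes. Abcg5 had 8.47 and 3.28 FPKM in the wild-type male and female, 8.98 and 9.88 in St6galnac6-/-, 2.28 and 2.07 in B3galt5D116A and 1.46 and 2.17 in B3gnt7-/-. Abcg8 was at 2.92 and 1.57 FPKM in the wild-type pair, 2.67 and 2.77 in St6galnac6-/-, 0.900 and 0.580 in B3galt5D116A and 0.754 and 1.29 in B3gnt7-/-. For both genes all 4 libraries of B3galt5D116A and B3gnt7-/- lay below all 4 of wild-type and St6galnac6-/-, and the wild-type female lay below the other 3. The share of all tested genes split in this way was not computed. Without overlap, 25.3% of all tested genes were below wild-type in B3galt5D116A and 18.6% in B3gnt7-/-. Against wild-type, Abcg5 differed by -1.01 (SE 0.33, limma adjusted p = 0.384) in B3galt5D116A and by -1.19 (SE 0.33, adjusted p = 0.499) in B3gnt7-/-, so neither passed. Of the 11 genes of sterol efflux and its regulation 7 were tested and 0 were called, and this pair was singled out after its values were seen.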
